A study of Danio rerio with 47 samples.

Results

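The genes described here are 7 members of the piRNA pathway, the Piwi genes piwil1 and piwil2, the Tudor-domain genes tdrd1, tdrd9 and rnf17, and the piRNA production genes pld6 and mov10l1 (listed as zgc:154086). They were chosen by name, with earlier results of these data known. Each has 1 row in the deposited table, and they are 7 of its 31475 rows. RNA came from trunks of zebrafish larvae in 4 groups, hybridised to 47 1-colour arrays: dnd morphants at 14 days post fertilization (dpf, 9 arrays), wild type at 14 dpf (14 arrays), dnd morphants at 22 dpf (10 arrays) and wild type at 22 dpf (14 arrays). Morphants had been injected as embryos at the 1-cell stage with a morpholino, a synthetic oligonucleotide for knockdown, aimed at dnd, which primordial germ cells need to survive. They were screened at 24 hours post fertilization, and the labels give them 1 to 9 primordial germ cells. At that screen the morphants were thus depleted of germ cells and not free of them. Whether each still held germ cells at 14 or 22 dpf was not tested. The labels give the same rearing temperature for all 4 groups. They name no strain and no control injection for the wild type, and they do not say how many fish went into a sample. The study's title concerns the formation of testes after early germ cell loss.

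Piwi proteins are Argonaute proteins of the germ line that bind piRNAs, small RNAs directed mostly against transposons. Long precursors are unwound and cut at the mitochondrial surface, and Piwi proteins loaded with piRNAs gather with Tudor-domain proteins in the nuage, granules around the nucleus of germ cells. In zebrafish, loss of Piwi function is known to lead to loss of germ cells. The trunk holds the gonad as a small part of its tissue, so in these bulk samples fewer germ cells and less RNA per germ cell cannot be told apart.

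Values are log2 intensities, with array medians of 7.26 to 7.7 and lower quartiles of 5.42 to 5.69. Differences are morphant minus wild type from a limma fit, with their standard error (SE) and a p adjusted over all rows, and a gene passed at an adjusted p below 0.05. Arrays are named by the number in their titles. At 22 dpf, 5 pairs of neighbouring arrays (morphants 1 and 2, morphants 3 and 4, wild types 5 and 6, 7 and 8, and 9 and 10) were near-duplicates, with correlations of 0.701 to 0.893 between their deviations from the group mean. A pair of morphants at 14 dpf (5 and 13) had 0.639, and no further pair exceeded 0.413. Whether a pair shares fish or RNA is not stated, so p-values with all arrays may be too small, and the adjusted p with the 5 pairs averaged is given beside them. The skeletal muscle and skin markers of a trunk were at a high level on each array, with list means of 14.22 to 15.28. The targeted gene, dnd1 (listed as dnd), stood between 4.75 and 7.23 in morphants against 4.94 to 9.71 in wild type at 14 dpf, and between 4.44 and 8.13 against 4.47 to 12.03 at 22 dpf. A morpholino leaves the gene in place, so the transcript level of dnd1 does not check the labels.

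Each of the 7 genes was lower in morphants at both ages. Since they were chosen with earlier results known, their counts beside the shares of all rows do not test the pathway. At 14 dpf 7 of 7 passed, with differences of -1.62 to -3.85, where 2.48% of all rows passed (1.33% lower and 1.15% higher). With each array centred on its median 7 of 7 passed too, where 2.61% of all rows passed. Of the rows called 60% were then higher in morphants, against 46.4% as deposited. At 22 dpf 7 of 7 passed as well, with differences of -2.24 to -4.05, where 3.49% of all rows passed (2.89% lower and 0.591% higher). The median difference over the 7 genes was -2.08 at 14 dpf and -2.76 at 22 dpf, and over all rows it was -0.01 and 0.04. With the pairs averaged 7 of 7 passed at each age, where 1.96% (1.08% lower) and 2.13% (2% lower) of all rows passed. For 5 of 7 genes at 14 dpf each morphant array lay below the wild-type median, which held for 3.04% of all rows, and for 7 of 7 at 22 dpf, against 3.97% of all rows. For 0 of 7 genes were the groups free of overlap at either age, and the shares of all rows without overlap were 0.0286% at 14 dpf and 0.0508% at 22 dpf.

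**Figure D1:**
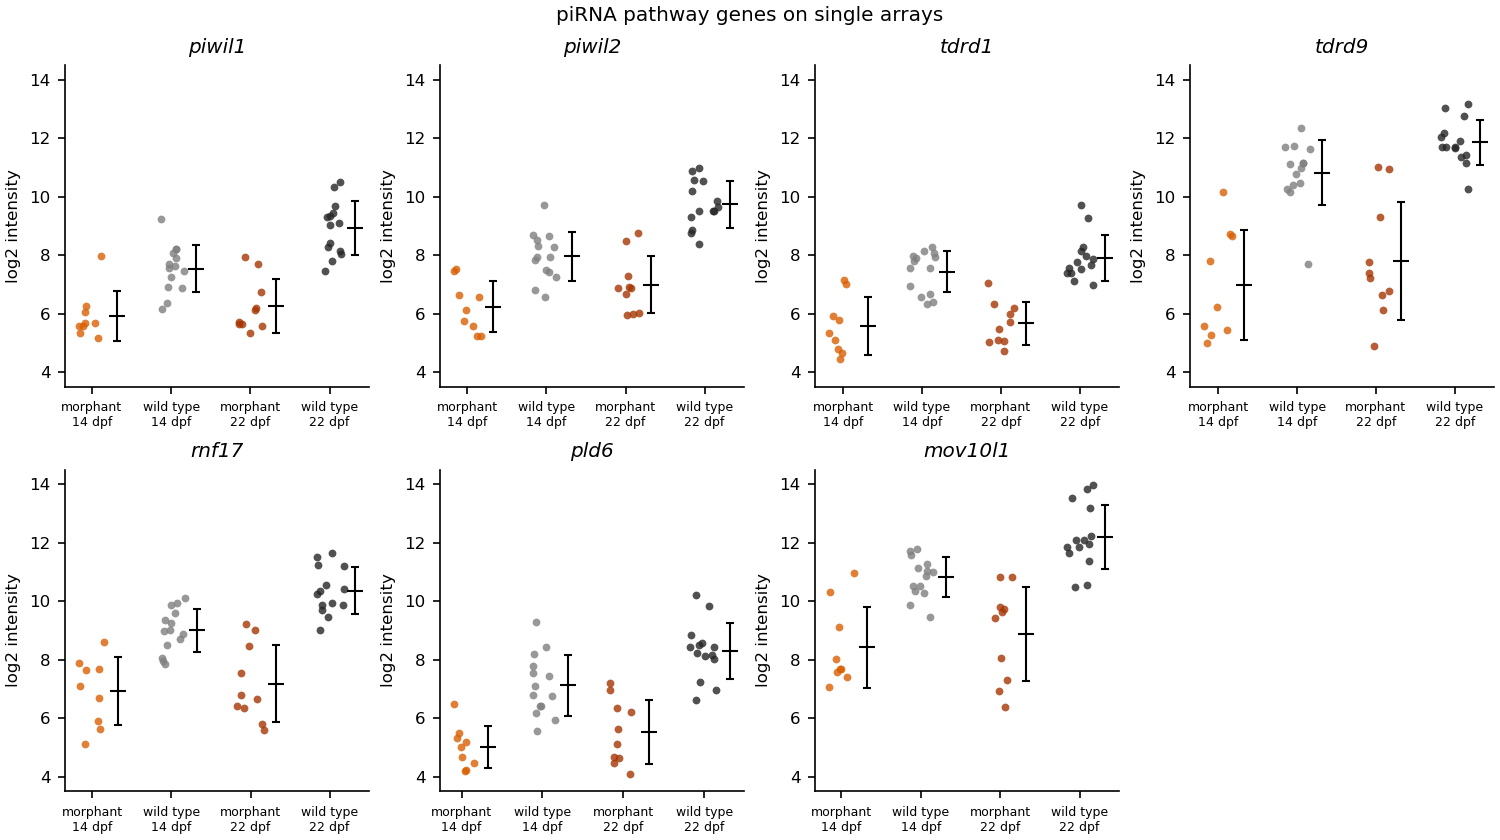
Log2 intensity of the 7 genes on each of the 47 arrays, 1 point per array, with the mean and SD of a group as a black bar beside its points. In each panel the morphant points lie mostly below the wild-type points of the same age, with a few morphant arrays within the wild-type range. The ages were normalized separately.

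Piwil1 (ziwi in zebrafish), a Piwi protein of the germ line, ranged from 5.16 to 7.98 (median 5.67) in morphants at 14 dpf, against 6.18 to 9.23 (median 7.6) in wild type. Of 9 morphant arrays 7 lay below the lowest wild-type array, and array 3 reached 7.98, above the wild-type median. The morphant mean was 5.93 ± 0.84 (SD, n = 9) and the wild-type mean 7.54 ± 0.8 (SD, n = 14), a difference of -1.62 (SE 0.36, adjusted p = 0.0116), with adjusted p = 0.00892 when pairs were averaged. At 22 dpf piwil1 ranged from 5.36 to 7.95 (median 5.92) in morphants, against 7.45 to 10.5 (median 9.07) in wild type. There 8 of 10 morphant arrays lay below each wild-type array, and the pair 1 and 2 (7.69 and 7.95) lay among the lowest wild types. The difference was -2.66 (SE 0.35, adjusted p = 9.1e-07, 6.3-fold lower), with adjusted p = 9.27e-06 when pairs were averaged.

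Piwil2 (zili in zebrafish), the other Piwi protein, ranged from 5.23 to 7.53 (median 6.12) in morphants at 14 dpf, against 6.56 to 9.71 (median 7.94) in wild type. Of 9 morphant arrays 5 lay below the lowest wild type and 9 lay below the wild-type median. The difference at 14 dpf was -1.73 (SE 0.36, adjusted p = 0.00583, 3.31-fold lower). At 22 dpf the range was 5.95 to 8.78 (median 6.89) in morphants, against 8.39 to 10.99 (median 9.59) in wild type. Morphant arrays 1 and 2, at 8.48 and 8.78, were again those that reached the wild-type range. The difference was -2.76 (SE 0.35, adjusted p = 4.21e-07, 6.79-fold lower), with adjusted p = 4.62e-06 when pairs were averaged.

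Tdrd9, a Tudor-domain RNA helicase needed in mouse for silencing of transposons, had the largest SD of the 7 genes among morphants at both ages (1.88 and 2.02). At 14 dpf it ranged from 5 to 10.15 (median 6.23) in morphants, against 7.7 to 12.34 (median 11.05) in wild type. Of 14 wild-type arrays 13 lay above each morphant array, and the exception was wild-type array 20 at 7.7. The morphant mean was 6.98 ± 1.88 (SD, n = 9) and the wild-type mean 10.83 ± 1.1 (SD, n = 14), a difference of -3.85 (SE 0.59, adjusted p = 0.000148, 14.4-fold lower). At 22 dpf tdrd9 ranged from 4.89 to 11.03 (median 7.3) in morphants, against 10.28 to 13.16 (median 11.71) in wild type. Morphant arrays 1 and 2 stood at 11.03 and 10.95, and the next highest morphant, array 18, at 9.32. The difference was -4.05 (SE 0.58, adjusted p = 2.69e-06, 16.6-fold lower), with adjusted p = 2.23e-05 when pairs were averaged.

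Tdrd1, a Tudor-domain scaffold that binds Piwi proteins in the nuage, ranged from 4.45 to 7.17 (median 5.36) in morphants at 14 dpf, against 6.34 to 8.27 (median 7.7) in wild type. Morphant arrays 3 and 16 (7.17 and 7.01) were those within the wild-type range. The difference was -1.86 (SE 0.33, adjusted p = 0.00113). At 22 dpf it ranged from 4.72 to 7.04 (median 5.59) in morphants, against 6.98 to 9.73 (median 7.72) in wild type, and 9 of 10 morphant arrays lay below each wild type. The difference was -2.24 (SE 0.32, adjusted p = 2.97e-06).

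Rnf17, a Tudor-domain protein with a RING finger that is needed for spermatid development in mouse, ranged from 5.12 to 8.61 (median 7.11) in morphants at 14 dpf, against 7.85 to 10.12 (median 8.99) in wild type. Of 9 morphant arrays 7 lay below the lowest wild type. The difference was -2.08 (SE 0.41, adjusted p = 0.00336, 4.23-fold lower). At 22 dpf it ranged from 5.59 to 9.21 (median 6.71) in morphants, against 9.01 to 11.64 (median 10.29) in wild type. Only morphant array 1, at 9.21, reached the wild-type range, and array 2 stood at 9.01, just below the lowest wild type. The difference was -3.18 (SE 0.4, adjusted p = 3.84e-07, 9.04-fold lower), which was the smallest adjusted p of the 7 genes.

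Pld6, the mitochondrial counterpart of the fly nuclease Zucchini that forms piRNA ends, ranged from 4.19 to 6.48 (median 5.02) in morphants at 14 dpf, against 5.57 to 9.29 (median 6.94) in wild type. Of 9 morphant arrays 8 lay below the lowest wild type. The difference was -2.12 (SE 0.41, adjusted p = 0.00276). At 22 dpf pld6 ranged from 4.07 to 7.2 (median 5.38) in morphants, against 6.61 to 10.21 (median 8.33) in wild type. Here the highest morphant was array 16 (7.2), not the pair 1 and 2 (6.95 and 6.34). The difference was -2.76 (SE 0.4, adjusted p = 3.12e-06).

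Mov10l1, a helicase that in mouse binds piRNA precursors and is needed for their processing, ranged from 7.06 to 10.96 (median 7.67) in morphants at 14 dpf, against 9.46 to 11.78 (median 10.93) in wild type. Morphant arrays 2 and 3 (10.96 and 10.32) lay within the wild-type range, and the other 7 lay below it. The difference was -2.39 (SE 0.49, adjusted p = 0.00496, 5.25-fold lower). At 22 dpf it ranged from 6.37 to 10.82 (median 9.54) in morphants, against 10.48 to 13.96 (median 12.02) in wild type. Of 10 morphant arrays 5 stood at 9.64 or above, and the pair 1 and 2 (10.81 and 10.82) was highest. The difference was -3.3 (SE 0.48, adjusted p = 3.37e-06, 9.82-fold lower).

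The morphant medians of tdrd1 at 14 dpf (5.36) and of pld6 at 14 and 22 dpf (5.02 and 5.38) lay below the lower quartile of each array, and those of piwil1 at 14 dpf (5.67) and tdrd1 at 22 dpf (5.59) lay within the range of the quartiles. No detection calls were used here, so whether these transcripts were detected there cannot be told. The differences of these 3 genes may therefore be lower bounds, no fold is given for them at those ages, and the sizes of the 7 differences are not ranked against each other. Single morphant arrays came as low for other genes: tdrd9 down to 5 at 14 dpf and 4.89 at 22 dpf, and rnf17 down to 5.12 and 5.59. Piwil2 came down to 5.23 at 14 dpf and piwil1 to 5.36 at 22 dpf. The differences and folds given for these may be lower bounds too. The adjusted p with pairs averaged did not exceed 0.00892 at 14 dpf and 6.39e-05 at 22 dpf for any of the 7 genes. With each array left out in turn, 7 of 7 genes passed at 14 dpf in each of 23 fits and at 22 dpf in each of 24. In those fits 1.58% to 3.38% of all rows passed at 14 dpf and 2.85% to 4.08% at 22 dpf. Leaving out an array of a near-duplicate pair at 22 dpf kept its partner in the fit.

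Title numbers up to 12 and from 13 onward, the only order the labels give, were also fitted apart. At 14 dpf, in numbers 1 to 12 (5 morphant and 7 wild-type arrays), the differences were -1.58 to -3.8 and 0 of 7 passed in limma, with 0.143% of all rows passing. There 7 of 7 had an unadjusted p below 0.05. In numbers 13 onward (4 morphant and 7 wild-type arrays) they were -1.4 to -4.02 and 5 of 7 passed, with 2.85% of all rows passing. There rnf17 (-2.08, adjusted p = 0.0567) and pld6 (-2.07, adjusted p = 0.0713) did not pass. At 22 dpf, in numbers 1 to 12 (4 morphant and 8 wild-type arrays), 6 of 7 passed, with 1.45% of all rows passing. There tdrd9 did not pass (-3.24, adjusted p = 0.0591). All 5 near-duplicate pairs lie in this range and were not averaged there, so its p-values may be too small. From 13 onward (6 morphant and 6 wild-type arrays) 7 of 7 passed, with 1.47% of all rows passing. With both number ranges in 1 fit and the range as a block 7 of 7 passed at each age. There 3.27% of all rows passed at 14 dpf and 3.42% at 22 dpf. Medians moved with the title number among wild types of 14 dpf. In numbers 13 onward piwil1 had 6.9, against 8.09 in numbers 1 to 12. Piwil2 had 7.5 against 8.33, tdrd1 6.69 against 7.91 and pld6 6.42 against 7.53. Tdrd9 (10.47 against 11.15) and rnf17 (8.71 against 9) were lower too, and mov10l1 was higher (11 against 10.53). In morphants of 14 dpf the median of each gene was lower from 13 onward, such as 5.83 against 7.82 for tdrd9.

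Whether the deficit grew with age was asked of the difference between both effects, 22 minus 14 dpf. As given above, the effects on piwil1 at 14 dpf and on tdrd1 and pld6 at both ages may be lower bounds. Through dim single arrays the same may hold for tdrd9 and rnf17 at both ages, piwil2 at 14 dpf and piwil1 at 22 dpf. An effect held small by dim signal at 14 dpf would by itself make this difference more negative, and its share was not tested. It was negative for 7 of 7 genes, between -0.21 and -1.1, and 0 of 7 passed in limma (adjusted p = 0.432 to 0.958), where 0.645% of all rows passed (0.553% in that direction). With the pairs averaged 0 of 7 passed and 3 of 7 had an unadjusted p below 0.05, where 0.324% of all rows passed (0.299% in that direction). With all arrays an unadjusted p below 0.05 was found for 2 of 7, piwil1 (-1.04, SE 0.51, 95% interval -2.06 to -0.02, p = 0.0462) and piwil2 (-1.04, SE 0.5, 95% interval -2.05 to -0.03, p = 0.0445). For rnf17 the interval was -2.25 to 0.05 and for mov10l1 -2.28 to 0.47. The effects on tdrd9 and tdrd1 differed by -0.21 (95% interval -1.87 to 1.46) and -0.37 (95% interval -1.3 to 0.55) between the ages. The sign of the tdrd9 value turned without single arrays, for example 0.19 without morphant array 3 at 14 dpf, and with the number range as a block 0 of 7 had an unadjusted p below 0.05. Each interval reached beyond a deficit larger by 1 log2 unit at 22 dpf, and 5 of 7 also included 0. The egg coat gene zp3, an oocyte marker, had a difference between the effects of -4.44 (SE 0.94, adjusted p = 0.0143), with effects of -4.54 at 22 dpf and -0.09 at 14 dpf. At 14 dpf its medians were 5.82 in morphants and 5.53 in wild type, near the lower quartiles of the arrays, where an effect could be missed. Zp3 was 1 of 4 among 8 measured oocyte markers whose difference between the effects passed (3 with pairs averaged). The others, gdf9, bmp15, buc and org, did not pass (adjusted p = 0.106 to 0.324).

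**Figure D2:**
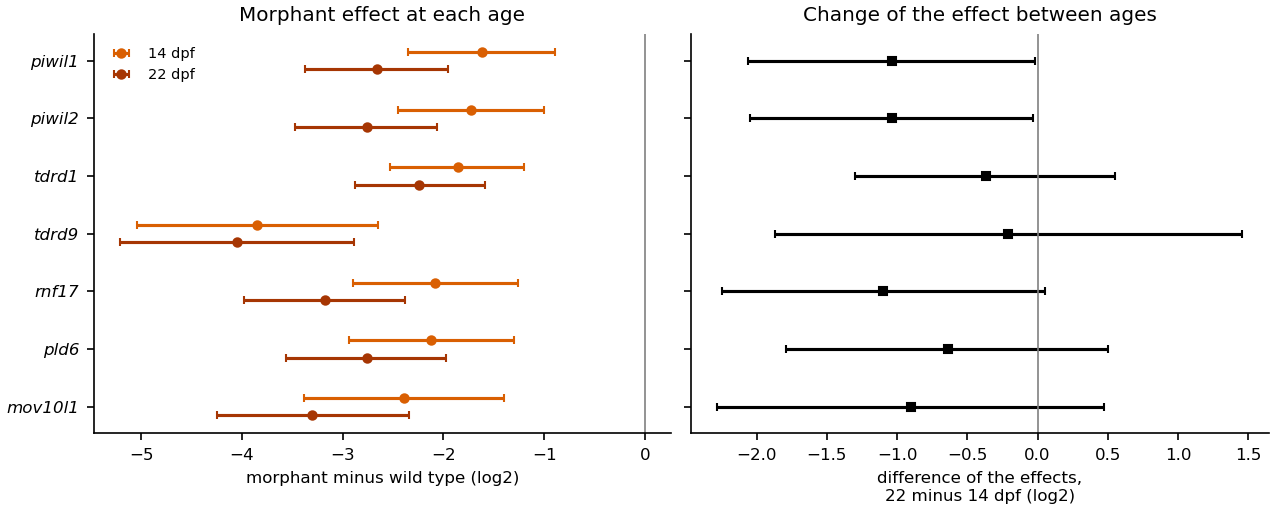
Left, morphant minus wild-type difference in log2 units for the 7 genes at 14 dpf (upper point of each pair) and 22 dpf (lower point). Right, the 22 dpf effect minus the 14 dpf effect. Bars are 95% intervals from the limma fit. On the left each interval lies below 0, and on the right 5 of 7 intervals include 0.

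The order of the group means was the same for 7 of 7 genes, with wild type at 22 dpf highest, then wild type at 14 dpf, morphants at 22 dpf and morphants at 14 dpf. The ages were normalized separately, so the steps between ages carry no test. Wild type stood 0.46 (tdrd1) to 1.8 (piwil2) higher at 22 dpf than at 14 dpf, which was more than the larger SD for 5 of 7 genes and less for tdrd1 and tdrd9. Morphants stood 0.09 (tdrd1) to 0.83 (tdrd9) higher at 22 dpf than at 14 dpf, less than the larger SD for each gene. Wild type at 14 dpf and morphants at 22 dpf were 0.97 (piwil2) to 3.02 (tdrd9) apart, which was within the larger SD for piwil2 alone (0.98).

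The same few arrays stood out across the genes. At 22 dpf morphant array 1 was at or above the lowest wild type for 7 of 7 genes and its near-duplicate array 2 for 4, whereas 7 of the other 8 morphant arrays were below each wild type for 7 of 7 genes. The eighth, array 16, was within the wild-type range for pld6. On the pair 1 and 2 ddx4 (listed as vasa) stood at 10.77 and 10.86, where the other morphants ranged up to 7.89, and zp3 at 8.47 and 8.84, where they ranged up to 6.49. The germ cell marker dazl did not set the pair apart, with 7 and 6.81, since arrays 16 and 18 had 7 and 6.84. Without this pair the differences at 22 dpf were -2.48 (tdrd1) to -4.85 (tdrd9) and 7 of 7 genes passed, where 2.88% of all rows passed. Arrays 1 and 2 were doubted only after these values had been seen. At 14 dpf morphant array 3 was within the wild-type range for 7 of 7 genes and held the highest or second highest morphant value of each, with ddx4 at 10.92. Array 2 of that age was within the wild-type range for 4 genes and array 16 for 3. Without morphant array 3 and wild-type array 20 the differences at 14 dpf were -1.96 (piwil2) to -4.48 (tdrd9). There 7 of 7 passed, where 2.72% of all rows passed. Morphant array 3 and wild-type array 20 were also doubted only after their values had been seen. The fits without doubted arrays are therefore no separate test of the differences. These are single arrays, or 1 near-duplicate pair, of a group with 1 to 9 labelled germ cells, and their number per fish is not given in the labels.

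**Figure D3:**
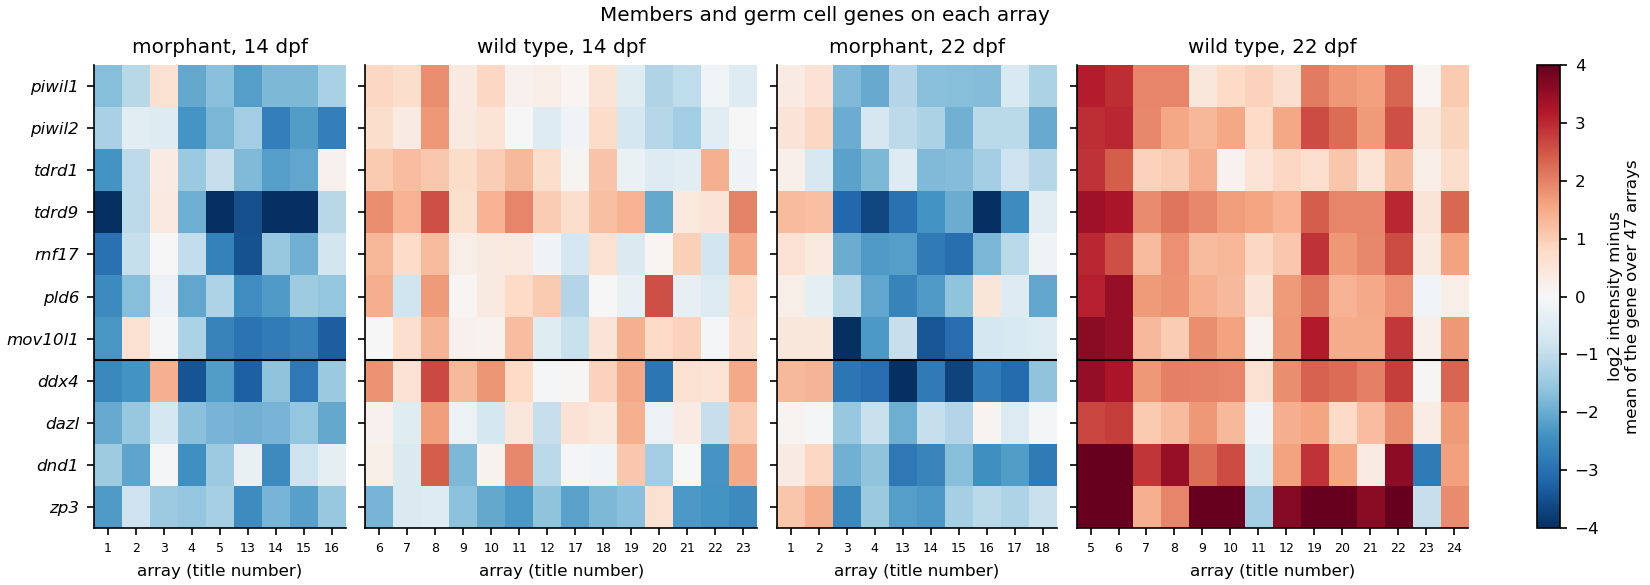
Log2 intensity minus the mean of the gene over the 47 arrays, for the 7 genes (above the line) and for ddx4, dazl, dnd1 and zp3 (below it), with 1 column per array. Colours end at 4 log2 units either way, and the ages were normalized separately. In most rows morphant arrays 1 and 2 at 22 dpf and 3 at 14 dpf are less blue than the other morphants. Exceptions include pld6 and dazl at 22 dpf, and mov10l1 and zp3 at 14 dpf. Wild types 5 and 6 at 22 dpf are the darkest red.

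Among wild types of 22 dpf arrays 5 and 6, a near-duplicate pair, held the highest values: array 5 was among the highest 2 for 7 of 7 genes and array 6 for 6. Array 23 was lowest for 5 genes and among the lowest 2 for 7 of 7. Array 23 had ddx4 at 9.55, dnd1 at 4.47 and zp3 at 6.44, against 13.01, 12.03 and 14.13 on array 5. At 14 dpf array 8 was highest for 3 of 7 genes and among the highest 3 for 6. Wild-type array 20 of that age went both ways. It was lowest for piwil1 (6.18), tdrd1 (6.34) and tdrd9 (7.7), and for ddx4 (6.6), but highest for pld6 (9.29) and for zp3 (7.99).

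In wild type at 22 dpf the 7 genes varied together from sample to sample. Correlations were taken within each group with the 5 near-duplicate pairs averaged, for 21 pairs of genes in 4 groups (84 relations), each with a permutation p, exact in groups under 10. In wild type at 22 dpf (n = 11) Pearson's r ran from 0.62 to 0.92 (median 0.82) and Spearman's rho from 0.5 to 0.93, and 20 of 21 pairs passed after adjustment by r and 8 by rho. Without the 2 samples farthest from the median of the first gene, r ran from 0.26 to 0.87 (median 0.62). From title number 13 onward (n = 6) r ran from 0.58 to 0.97, and numbers 1 to 12 held fewer than 6 samples. In wild type at 14 dpf (n = 14) r ran from -0.15 to 0.93 (median 0.29), and 5 of 21 pairs passed by r and 1 by rho. That 1 pair was piwil1 and piwil2, with r = 0.93 (permutation p = 1e-05, the smallest the resamples can give, adjusted p = 0.00084) and rho = 0.86 (permutation p = 9e-05, adjusted p = 0.00588), and r = 0.86 without the 2 farthest samples. Within title numbers 1 to 12 and 13 onward (n = 7 each) the pair had r = 0.94 and 0.89, while the median over 21 pairs was 0.54 and 0.09. Mov10l1 and pld6 had the lowest median r at that age, with 0.12 and 0.09 to the other 6 genes.

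In morphants the relations rested on few samples. At 14 dpf (n = 9) r between genes had a median of 0.62, and 8 of 21 pairs passed by r and 0 by rho in the exact permutation test, but without the 2 farthest samples the median was 0.13. At 22 dpf (n = 8) the median r was 0.55, 4 of 21 pairs passed by r and 0 by rho, and the median was 0.51 without the 2 farthest samples and 0.26 from title number 13 onward (n = 6). Of the 4 pairs rnf17 and mov10l1 had r = 0.84 (exact permutation p = 0.0116, adjusted p = 0.0325) and rho = 0.88 (exact permutation p = 0.00724, adjusted p = 0.0553), and r = 0.78 without the 2 farthest samples. That pair was picked after its values had been seen.

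**Figure D4:**
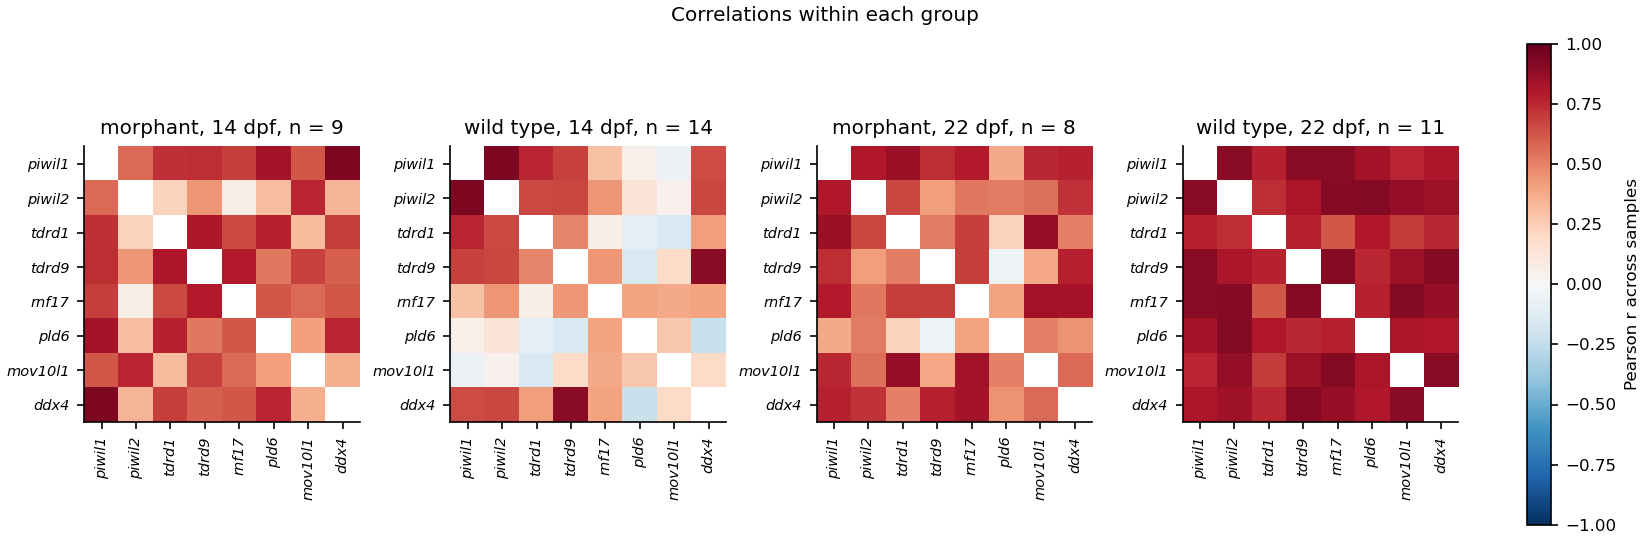
Pearson's r between the 7 genes and ddx4 across the samples of each group, with near-duplicate pairs averaged and the diagonal left blank. The panel of wild type at 22 dpf is red throughout, with r between genes of 0.62 to 0.92, and the panel of wild type at 14 dpf is palest in the columns of pld6 and mov10l1.

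The helicase ddx4, a standard marker of germ cells, is not among the 7 but is on the list of other piRNA and nuage genes used below. It was set against each of the 7 genes in the same way (28 relations). In wild type at 22 dpf (n = 11) r ran from 0.75 (tdrd1) to 0.91 (tdrd9), 7 of 7 passed by r and 5 of 7 by rho, and r ran from 0.47 to 0.9 without the 2 farthest samples. Tdrd9 had r = 0.91 (permutation p = 0.00031, adjusted p = 0.00174) and rho = 0.94 (permutation p = 9e-05, adjusted p = 0.0014). In wild type at 14 dpf (n = 14) tdrd9 had r = 0.9 (permutation p = 0.00028, adjusted p = 0.00174), which was 0.53 without the 2 farthest samples, 3 of 7 genes passed by r and 2 by rho, and pld6 had r = -0.22. Within title numbers 1 to 12 and 13 onward (n = 7 each) tdrd9 had r = 0.6 and 0.97. In morphants 1 of 7 passed by r at each age and 0 by rho. At 14 dpf that gene was piwil1, with r = 0.93 (exact permutation p = 0.00534, adjusted p = 0.0187), rho = 0.75 (adjusted p = 0.0793) and r = 0.8 without the 2 farthest samples. At 22 dpf it was rnf17, with r = 0.83 (exact permutation p = 0.00608, adjusted p = 0.0189), which was 0.25 without the 2 farthest samples. Samples of a group share their normalization.

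The rows that followed the 7 genes most closely were sought over all 47 arrays, as the correlation of each row's deviations from its group means with the mean of the 7 standardised deviations. The highest named row, zgc:103482, had r = 0.84, followed by si:dkey-34o23.3 (listed as loc571363, 0.8), ddx4 (0.79), tdrd5 (0.76) and the oogenesis-related gene org (0.76). Then came exd1 (listed as zgc:154068, 0.75), eif4e1b (0.75), rbm44 (listed as si:dkey-189g17.2, 0.74), tdrd6 (0.74) and adad1 (listed as loc564818, 0.74). Over all 31468 rows outside the members the median r was -0.02 and the 99th percentile 0.51. Of these 10 rows 10 were called lower in morphants at 22 dpf, against 2.89% of all rows. At 14 dpf 9 were, against 1.33% of all rows, and rbm44 had -0.71 (SE 0.36, adjusted p = 0.319). The rows were picked for following the 7 genes on these same arrays, near-duplicates included, so these counts are no separate test. The row zgc:103482 changed by -3.58 (SE 0.55) at 14 dpf and -4.33 (SE 0.54) at 22 dpf.

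Other genes of the piRNA pathway and the nuage were taken from a list of 20, of which 16 had a row. At 14 dpf 4 were lower, 0 higher and 12 did not pass, with a median difference of -0.51, where 1.33% of all rows were called lower. At 22 dpf 9 were lower, 0 higher and 7 did not pass, with a median difference of -1.76, where 2.89% of all rows were called lower. With the pairs averaged 8 were lower, against 2% of all rows. Lower at both ages were ddx4 (-2.84, SE 0.57, and -4.19, SE 0.56), the Tudor-domain genes tdrd5 (-2.19, SE 0.53, and -3.28, SE 0.51) and tdrd6 (-1.9, SE 0.42, and -2.94, SE 0.4), and exd1 (-1.61, SE 0.42, and -4.31, SE 0.41). Exd1, which is known in mouse as a partner of Tdrd12 in piRNA production, was the 1 gene of 16 whose difference between the effects passed (-2.7, SE 0.59, adjusted p = 0.0153), and on its dimmer row it did not pass (-1.15, SE 0.49, adjusted p = 0.348).

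At 22 dpf asz1, a mitochondrial scaffold of piRNA production, fell by 3.39 (SE 0.46, adjusted p = 1.06e-06) and stood at -1.42 (SE 0.47, adjusted p = 0.092) at 14 dpf. Gtsf1 (listed as zgc:56699), a zinc finger protein that works with Piwi proteins, fell by 2.85 (SE 0.44) at 22 dpf, against -0.52 (SE 0.45, adjusted p = 0.61) at 14 dpf. Henmt1, the methyltransferase that protects piRNA ends, fell by 2.44 (SE 0.44) at 22 dpf, against -1.41 (SE 0.45, adjusted p = 0.0779) at 14 dpf. Gpat2 fell by 1.83 (SE 0.35) at 22 dpf, against -0.24 (SE 0.36) at 14 dpf. Their differences between the effects did not pass (adjusted p = 0.178 for asz1, 0.0679 for gtsf1, 0.566 for henmt1 and 0.147 for gpat2). At 14 dpf gpat2 had means of 5.06 in morphants and 5.3 in wild type. Both lay below the lower quartile of each array, where an effect could be missed. The ninth, stk31 (listed as loc100330765), fell by 1.69 (SE 0.47, adjusted p = 0.0271) at 22 dpf and did not pass with the pairs averaged (-1.42, SE 0.53, adjusted p = 0.226). The genes that did not pass at 22 dpf lay between -1.06 (tdrd12) and 0.44 (tdrd7b). Between them lay fkbp6 (-0.74), tdrkh (-0.32), ddx39b (0.02), the arginine methyltransferase prmt5 (0.04) and its partner wdr77 (-0.04). The morphant means of tdrd12 (5.27) and fkbp6 (5.07) at 22 dpf lay below the lower quartile of each array. Their differences may therefore be lower bounds. Rows of a gene disagreed for tdrd12, where the brighter row (listed as loc100334979) had -1.06 (adjusted p = 0.103) and the other -1.8 (adjusted p = 0.00156), and for gtsf1, whose dimmer row had -1.63 (adjusted p = 0.0865). The dimmer row of exd1 had -0.49 (adjusted p = 0.51) at 14 dpf and -1.65 (adjusted p = 0.00116) at 22 dpf.

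**Figure D5:**
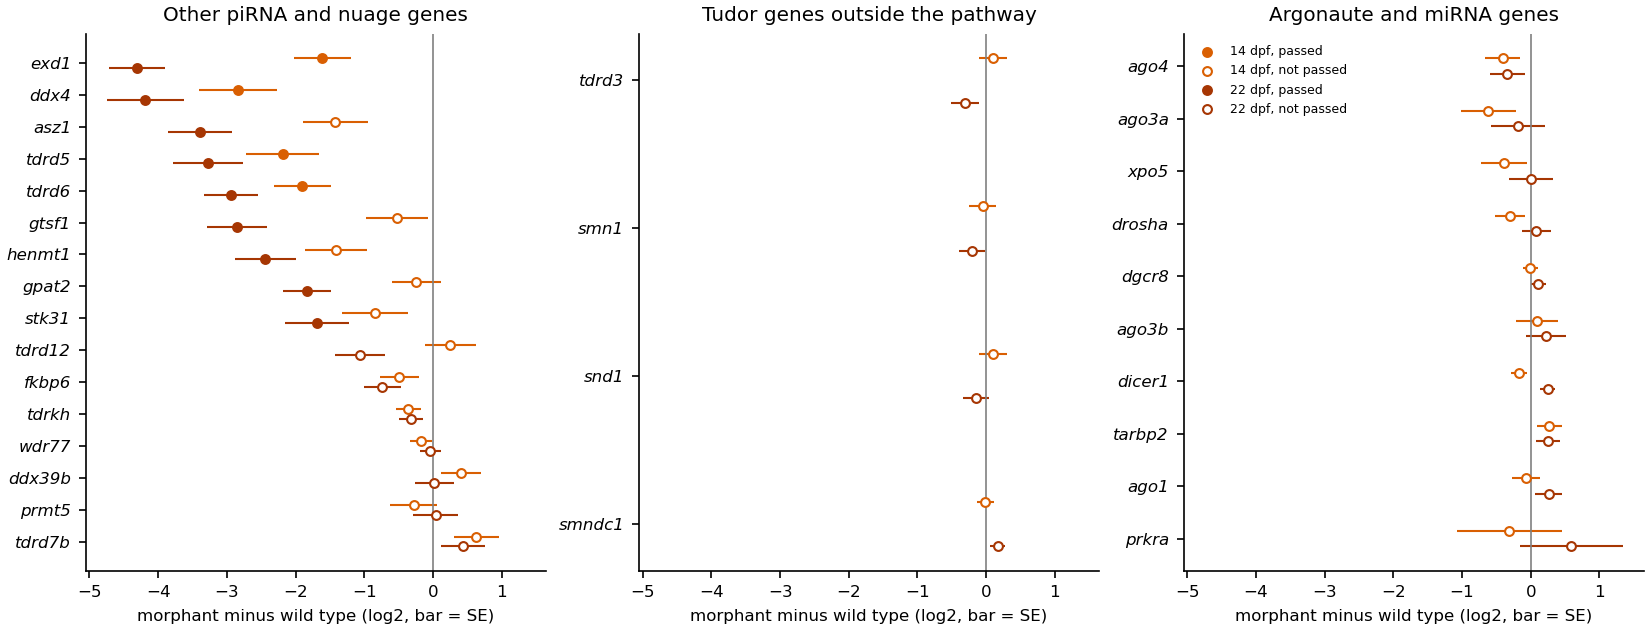
Morphant minus wild-type differences in log2 units with their SE at 14 dpf (upper point) and 22 dpf (lower point) for 16 other piRNA and nuage genes, 4 Tudor-domain genes outside the pathway and 10 Argonaute and miRNA genes. Filled points passed at an adjusted p below 0.05: 4 and 9 in the left panel at 14 and 22 dpf, and 0 in the others.

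Relatives of the members outside the piRNA pathway are given as values, since with 2.48% of all rows passing at 14 dpf and 3.49% at 22 dpf a count of 0 among so few genes is near the background. Of 4 Tudor-domain genes with roles in other tissues, 0 passed at either age and 0 had an unadjusted p below 0.05. Tdrd3 stood at -0.31 (SE 0.2, adjusted p = 0.525) at 22 dpf. At that age the survival motor neuron gene smn1 stood at -0.21 (SE 0.19) and the splicing factor smndc1 at 0.17 (SE 0.11). Of 10 measured Argonaute and miRNA processing genes from a list of 11, 0 passed at either age, with 0 at an unadjusted p below 0.05 at 14 dpf and 1 at 22 dpf. That 1 was dicer1, the nuclease that makes miRNAs (0.25, SE 0.11, adjusted p = 0.28). Ago4 (listed as eif2c4) stood at -0.41 (SE 0.26) at 14 dpf and -0.34 (SE 0.25) at 22 dpf, and ago3a (listed as eif2c1) at -0.62 (SE 0.4) and -0.19 (SE 0.39). The median difference of this list was -0.24 at 14 dpf and 0.17 at 22 dpf.

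Markers of germ cells and of other cell types moved beside these genes, and their part in the differences was not tested. Beside the counts below, 1.33% of all rows were called lower and 1.15% higher at 14 dpf, and 2.89% and 0.591% at 22 dpf. With the pairs averaged 2% were called lower at 22 dpf. A count of 1 in a short list is not read as a shift of a cell type. Of 5 measured germ cell markers 2 (ddx4 and dazl) were lower at 14 dpf and 5 at 22 dpf (4 with pairs averaged), and dazl changed by -1.86 (SE 0.31) and -2.08 (SE 0.3). The germ cell marker nanos3 went both ways, with 0.92 (SE 0.3, adjusted p = 0.089, and 0.0482 with pairs averaged) at 14 dpf and -1.04 (SE 0.29, adjusted p = 0.0305, and 0.0519 with pairs averaged) at 22 dpf. Of 8 measured oocyte markers 1 was lower at 14 dpf, org (-2.97, SE 0.59), and 8 were lower at 22 dpf (7 with pairs averaged). The mean of the oocyte list ran from 5.31 to 6.68 in morphants against 5.73 to 7.22 in wild type at 14 dpf, and from 5.42 to 7.66 against 6.74 to 12.49 at 22 dpf. Of 11 measured meiosis genes from a list of 12, 4 were lower at 14 dpf and 8 at 22 dpf (7 with pairs averaged). Gonadal soma markers were lower for 1 of 7 at 14 dpf and 3 of 7 at 22 dpf (2 with pairs averaged), with list means of 5.13 to 6.29 in morphants against 5.86 to 6.73 in wild type at 22 dpf. Of 4 leukocyte markers 1 was higher at 14 dpf, with list means of 9.94 to 10.79 in morphants against 8.77 to 10.49 in wild type, and of 3 kidney markers 1 was higher, with 6.8 to 7.22 against 6.17 to 7.23. At 22 dpf 1 of 4 exocrine pancreas markers was higher (0 with pairs averaged), with list means of 8.87 to 13.25 in morphants against 8.73 to 13.49 in wild type. No muscle, liver, intestine or skin marker passed in limma at either age. Some of those rows were dim, such as the liver marker tfa with group means of 4.93 to 5.29, so a change could be missed there.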

How the data were processed

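The deposited table holds 1 log2 intensity per row and array. Total RNA was amplified to cDNA and labelled with Cy3, per the labels' protocols, and the submitters' processing notes name RMA, with no version given in the sources used here. The genome build and array design are not given in the sources used here. Precision is limited by how many arrays there are. The labels call them biological replicates without saying what separates them. The labels number the 14 dpf morphants as 10 replicates, and all 9 arrays of that group in the table used here were analysed.

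Of 31475 row names, 22614 were paired with a current symbol through RefSeq and Ensembl gene tables (GRCz12tu for names only), 46 matched several genes and 8815 none. For listed genes with several rows the brightest was used. Exactly equal values below 3.7 were shared 11 times among 14 dpf arrays, where 0.085 were due by chance, 55 times among 22 dpf arrays (2.74 due) and 2 times across ages (1.55 due). The ages were therefore taken as normalized apart, and no test was made between them within a genotype. Only the morphant effects, each a difference within its age, were compared between ages.

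A model of 4 group means was fitted to all rows and arrays with limma 3.58.1 in R 4.3.3 (43 residual degrees of freedom, 38 with pairs averaged), moderated by eBayes, and p-values were adjusted by Benjamini-Hochberg across the whole table. No low rows were removed. The code was tested on simulated data. Near-duplicates were pairs within a group whose deviations, in rows whose mean was 8 or higher, correlated above 0.65. Correlations used 100000 resamples in groups of 10 or more. Named are the 7 members, up to 8 called genes of the pathway list, up to 3 each of the Tudor and Argonaute lists, the 10 rows with a gene name that were most similar and ddx4, dazl and dnd1. Alternatives were pair averaging, title number ranges as a block and alone, array centring, a filter on dim rows, each age alone, array weights, another eBayes prior and leaving out each array; 3 more were chosen after seeing the data. Other names were picked after their values were seen. The members and lists were chosen with earlier results of these data known. Promoter and protein sequences were not used here.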

Additional observations from a re-analysis of the deposited data

Results flagged for a closer look

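Morphant array 3 at 14 dpf had a piwil1 value of 7.98, far from the other 8 morphants, which ranged up to 6.27. Its gap to the nearest of them was more than 0.493 of the group's whole range, the limit for 9 samples. Of 14 such groups of values, 7 genes in the morphants of each age, this was the 1 that stood out. Chance alone flags about 1 in 20 groups, so 1 of 14 is near what chance gives. On the same array ddx4 was 10.92, and the next highest morphant value was 8.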

How the results depend on the processing

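The 7 genes were lower in morphants under every alternative run, at both ages. Their call held in each at both ages, except with title numbers 1 to 12 alone, where 0 passed at 14 dpf and 6 at 22 dpf, and with numbers 13 onward alone, where 5 passed at 14 dpf. In that order 0.143%, 1.45% and 2.85% of all rows passed in those fits, against 2.48% at 14 dpf and 3.49% at 22 dpf with all arrays. Those fits hold fewer samples, and whether this lost the calls was not tested. Numbers 1 to 12 at 22 dpf hold all the near-duplicate pairs, not averaged there, so those p-values may be too small. No gene passed for the difference between the effects, 22 minus 14 dpf, under any alternative. The sign of that difference turned for tdrd9 in numbers 1 to 12 (0.56) and without morphant array 3 and wild-type array 20 at 14 dpf (0.43), and for mov10l1 in numbers 13 onward (0.028). With each array left out in turn, the tdrd9 value ran from -0.5643 to 0.1889. The cause was not tested.

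The number of all rows called at 14 dpf, 780, became 45 in numbers 1 to 12 and 897 in numbers 13 onward. It became 195 with that age fitted alone, 370 with array weights and 400 with 6 pairs averaged. Leaving out single arrays gave 498 to 1065 (509 without morphant array 1 and 498 without array 13). At 22 dpf 1097 became 669 with the pairs averaged, 455 in numbers 1 to 12, 462 in numbers 13 onward and 667 with 6 pairs averaged. For the difference between the effects 203 became 102, 0, 30 and 66 in the same order. With single arrays left out it became 123 to 340 (123, 129 and 135 without morphants 3, 4 and 13, and 340 and 313 without wild types 11 and 23 of 22 dpf). The 6 averaged pairs and the fits without doubted arrays were chosen after seeing the data.

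No paired analysis was possible because title numbers are unique within an age, so morphant and wild-type arrays share none, and no test was made between ages within a genotype. A second row for a member was not found, and the promoter motif search was not run. Dim rows limit what can be said of tdrd1 and pld6 in morphants. Dim single arrays limit it for piwil1, piwil2, tdrd9 and rnf17 too.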
